A study of Rattus norvegicus with 30 samples.

Results

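Left ventricles of rat hearts given ischaemic preconditioning (IPC, 5 arrays) were compared with those of control hearts (CTL, 5 arrays), 10 of the 30 Affymetrix arrays of the study. Arrays were assigned by the group and replicate letter in their titles, and all 8740 probe sets that are not array controls were described. In the series IPC stands for preconditioning by ischaemia followed by a test ischaemia, although the array titles name only the preconditioning. The other groups, with 5 arrays each, were ischaemia alone (ISCH), preconditioning with an anaesthetic (APC), and the trigger of each preconditioning (IPC_TRI and APC_TRI), of which ISCH, APC and IPC_TRI are used below. Every array held total RNA from 1 left ventricle sample, and the labels call the 5 of a group biological replicates. All groups share the species, tissue and platform. The sources used here do not give the strain, age and sex of the rats, the anaesthetic, or the lengths of ischaemia and reperfusion.

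Ischaemic preconditioning consists of brief periods of blocked flow that leave the heart more tolerant of a later, longer one. Cells under such stress switch on immediate early genes, which encode transcription factors made within minutes, and the heat shock response, in which heat shock factor 1 drives genes of chaperones that refold damaged proteins. Interferons signal through JAK kinases and STAT factors to genes that carry an interferon-stimulated response element, and NF-kB drives chemokines, cytokines and the adhesion molecules by which endothelium catches leukocytes.

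Each value below is a deposited signal, a brightness on a linear scale with no unit, given for arrays 1 to 5 of a group in that order. A change is the difference IPC minus CTL in log2(signal + 16) after quantile normalization, with its standard error (SE, n = 5 arrays a group), so a change of 1 is 2-fold, and the changes of dim probe sets are understated. Adjusted p-values are limma's, with Benjamini-Hochberg adjustment over the 5244 probe sets tested, and a gene is called where that p is under 0.05. Signals of different probe sets are not comparable with each other. The arrays hold bulk tissue, so that fewer cells of a type and less RNA per cell cannot be told apart.

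Of the 5244 probe sets, 204 were called (3.89%), 98 of them higher in IPC (1.87%) and 106 lower (2.02%). With each array weighted by how well it followed its group, the count was 398. Taken as 1 probe set per gene, 114 of 3155 genes were called (3.61%), with 48 risen (1.52%) and 66 fallen (2.09%). The median change of the fallen genes was -1.32 and that of the risen genes 1.15, beside -0.00 over all genes tested. Changes past 2 log2 units were found for 11 fallen and 4 risen genes. All 5 IPC arrays lay above all 5 CTL arrays for 40 of the 48 risen genes, and below them for 59 of the 66 fallen genes. Over all genes tested, 213 (6.75%) had groups that did not overlap, 2.95% with every IPC array above every CTL array and 3.8% with every IPC array below. Of the called genes, 43 had other tested probe sets, 55 in all. Of these, 54 moved in the same direction, 37 of them called, and 1, for Nf1, did not and was not called.

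**Figure D1:**
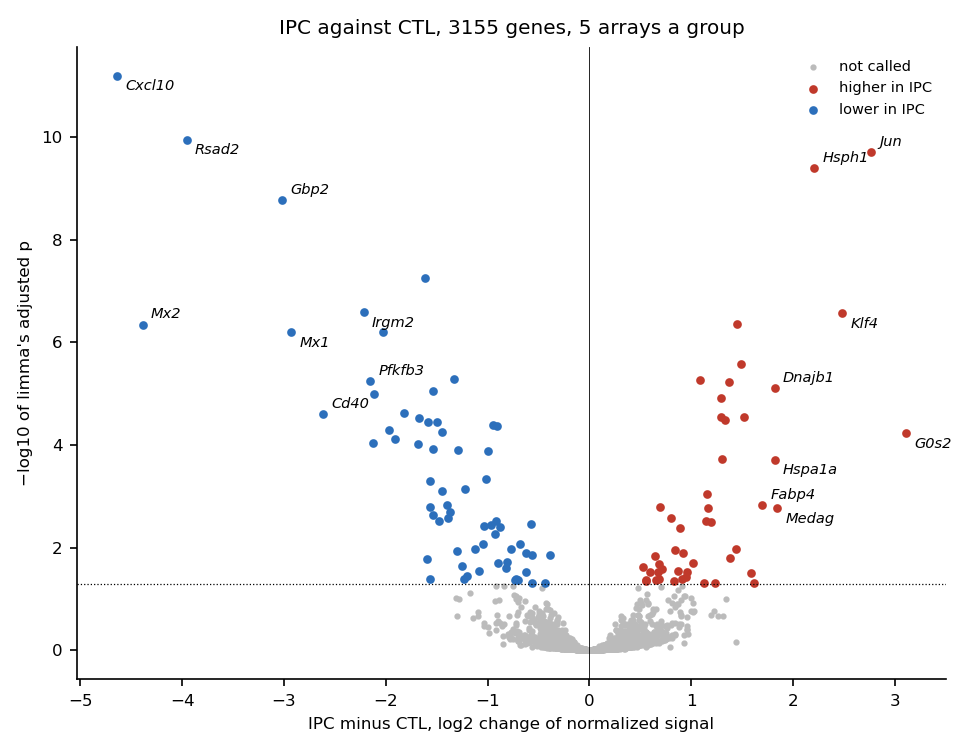
Change in IPC against CTL (x axis, log2 units) and limma's adjusted p (y axis, −log10 scale) for the 3155 genes, 1 point each. The dotted line marks an adjusted p of 0.05, with 48 genes above it to the right (red) and 66 to the left (blue), and the 16 labelled genes are the 8 largest changes in each direction.

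The tissue label was checked on marker genes. All 13 measured ventricular cardiomyocyte markers passed the filter on low signal and 0 were called, with 10 below 0 and a median change of -0.09. Myh6, the alpha myosin heavy chain of the adult rat ventricle, had signals of 23127 to 31130.5 in IPC, against 26822 to 43105 in CTL. Markers of other sources gave few calls. The lists of atrial muscle, with Myl7 and Myl4, and skeletal muscle, with Casq1, held no call. The red cell globin Hbb spanned 16.3 to 40.3 in IPC and 7.8 to 54.5 in CTL. The neutrophil gene S100a8 spanned 1.1 to 18.6 in IPC and 5.3 to 25 in CTL. Other markers of blood cells were brighter, so these low signals do not show that such cells were absent. The red cell gene Slc4a1 spanned 491.6 to 771.1 in IPC and 536.4 to 654.9 in CTL. Cd74, on the macrophage and neutrophil list, spanned 3668 to 5047 in IPC and 3470 to 5093 in CTL. RNA quality measures of IPC and CTL were compared by 2-sided exact permutation tests. Of the 6 measures, the lowest exact permutation p was 0.159 for the beta-actin 3′ to 5′ log2 ratio, which averaged 0.34 ± 0.26 in IPC and 0.08 ± 0.24 in CTL (SD, n = 5 each; adjusted over the 6, p = 0.524). The other 5 measures had exact p-values between 0.238 and 0.944.

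Interferon-induced genes had the lowest median change of the 32 process lists. Of the 20 measured, 19 passed the filter. In IPC 16 fell and 0 rose, with a median change of -1.58 and all 19 values below 0. The largest fall was that of Cxcl10, an interferon-induced chemokine that draws activated T cells, with signals of 496, 471, 898, 492 and 389 on the IPC arrays, against 12083, 15134, 14288, 10419 and 10318 on the CTL arrays. The groups lay far apart, and the change was -4.64 ± 0.31 (adjusted p = 6.4e-12), which is 25-fold lower in IPC. Rsad2, whose product viperin blocks the replication of many viruses, had 517, 636, 730.4, 285 and 464 on the IPC arrays, against 8135, 9454, 8845, 7558 and 6316 on the CTL arrays. It changed by -3.96 ± 0.30 (adjusted p = 1.1e-10), again without overlap. Mx2, an antiviral dynamin-like GTPase, had 48.7, 49.7, 210.5, 54.4 and 61.8 on the IPC arrays, against 3097, 1132, 2835, 1903 and 1844 on the CTL arrays. Array 3 of IPC stood above the other 4 IPC arrays, but well below every CTL array, and the change was -4.39 ± 0.51 (adjusted p = 4.5e-07). Its relative Mx1 had 207, 236, 272, 241 and 358 on the IPC arrays, against 2076, 2634, 2923, 1809 and 1809 on the CTL arrays, a change of -2.93 ± 0.35 (adjusted p = 6.3e-07).

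The GTPases that restrict intracellular parasites moved alike. Gbp2 had 49.8, 181, 93.4, 71.4 and 196 on the IPC arrays, against 901, 1566, 1136, 1138 and 803 on the CTL arrays, with a change of -3.02 ± 0.26 (adjusted p = 1.7e-09). Irgm2 had 243, 317, 321, 254 and 224 on the IPC arrays, against 1562, 1682, 1539.8, 1266 and 1012 on the CTL arrays, with a change of -2.22 ± 0.25 (adjusted p = 2.6e-07). For both genes every CTL array was brighter than the brightest IPC array. Oas1a, which makes the 2-5A messenger that activates RNase L, changed by -1.58 ± 0.24, and Eif2ak2, the kinase PKR that halts translation on sensing double-stranded RNA, by -1.56 ± 0.32. Neither gene's groups overlapped.

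The transcription factors that drive these genes were lower too. Irf7, the factor that amplifies type I interferon production, had 653, 458, 990.4, 413 and 937 on the IPC arrays, against 3176, 3615, 3148, 2534 and 2597 on the CTL arrays. No IPC array reached the lowest CTL array, and the change was -2.13 ± 0.35 (adjusted p = 9.3e-05). Irf1, induced by interferon gamma, had 1339, 1526, 1862, 1163 and 1209 on the IPC arrays, against 5132, 6566, 4818, 5322 and 4385 on the CTL arrays, a change of -1.91 ± 0.31 (adjusted p = 7.6e-05). Stat2, a subunit of the factor that binds the response element, had 170.4, 236, 199, 99.9 and 176 on the IPC arrays, against 849.6, 1034, 937, 737 and 757 on the CTL arrays, a change of -2.12 ± 0.30 (adjusted p = 1.0e-05). Upstream, the gamma receptor chain Ifngr1 had 172, 224, 169, 148 and 251 on the IPC arrays, against 650.3, 447, 639, 644 and 642 on the CTL arrays, and changed by -1.50 ± 0.23 (adjusted p = 3.6e-05). The kinase Jak2 changed by -1.04 ± 0.25 (adjusted p = 0.0084). In both, all IPC arrays were below all CTL arrays. Irf8, Psme1 and B2m were tested and not called, with changes of -0.71, -0.11 and -0.23.

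Genes of antigen presentation by class I molecules were among the 16. The immunoproteasome subunit Psmb8 had 336, 312, 566, 252 and 502 on the IPC arrays, against 1090.5, 1422, 1217, 1184 and 1079 on the CTL arrays, a change of -1.54 ± 0.22 (adjusted p = 8.7e-06). Its partner Psmb9 changed by -1.30 ± 0.32, the proteasome activator Psme2 by -0.93 ± 0.21, and the peptide transporter subunits Tap1 and Tap2 by -1.39 ± 0.30 and -0.77 ± 0.19. The class I genes RT1-M3-1 and RT1-S3, on no list, changed by -1.37 ± 0.28 and -1.22 ± 0.23, in probe sets that may also bind related class I transcripts. The IPC and CTL arrays did not overlap for any of these 7 genes. In the list of 34 proteasome and ubiquitin genes tested, Psmb8 and Psmb9 were the 2 that fell and 0 rose, with a list median of 0.03. The interferon-inducible Ifitm3, which blocks viral entry, also fell, by 2.52-fold (change -1.33 ± 0.18, adjusted p = 5.2e-06).

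The promoters of the interferon-induced genes were read from RefSeq, in the GRCr8 rat assembly, as the 250 bases before and 50 after the first listed start of a gene, which 18 of the 19 genes had. The core of the interferon-stimulated response element, GAAANNGAA on either strand, was found in 12 of these 18 (66.7%). It was present in 17 of the 52 fallen genes with a promoter in the table (32.7%), 2 of 40 risen genes (5%), 184 of 2590 tested genes (7.1%) and 9.5% of all 27457 promoters. Many genes of this list are known as interferon targets, so the share describes the list as much as the hearts. Shown here are the promoters of the chemokine with the largest fall (Cxcl10, chr14:15988816-15989115, plus strand) and of both GTPases above (Gbp2, chr2:234005477-234005776, plus strand, and Irgm2, chr10:42889720-42890019, plus strand), each 5′ to 3′ in the direction of its gene. Capitals mark the element core and, in Cxcl10, also a kappa B core.
Cxcl10: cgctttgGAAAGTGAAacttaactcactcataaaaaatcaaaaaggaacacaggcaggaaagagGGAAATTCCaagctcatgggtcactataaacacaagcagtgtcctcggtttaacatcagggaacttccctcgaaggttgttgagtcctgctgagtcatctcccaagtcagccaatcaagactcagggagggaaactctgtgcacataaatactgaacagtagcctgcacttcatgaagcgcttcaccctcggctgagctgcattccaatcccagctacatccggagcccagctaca
Gbp2: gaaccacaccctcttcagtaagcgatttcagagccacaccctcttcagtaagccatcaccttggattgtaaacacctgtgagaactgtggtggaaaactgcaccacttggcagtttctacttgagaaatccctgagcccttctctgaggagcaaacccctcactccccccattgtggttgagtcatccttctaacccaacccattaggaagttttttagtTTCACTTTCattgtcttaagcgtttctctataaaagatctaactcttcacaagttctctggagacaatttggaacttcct
Irgm2: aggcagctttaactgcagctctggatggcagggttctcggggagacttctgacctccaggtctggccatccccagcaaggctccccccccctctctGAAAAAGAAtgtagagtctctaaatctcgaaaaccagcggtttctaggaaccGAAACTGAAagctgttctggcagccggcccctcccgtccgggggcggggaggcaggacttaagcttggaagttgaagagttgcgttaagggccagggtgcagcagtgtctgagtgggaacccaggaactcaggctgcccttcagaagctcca
In Cxcl10 the element core GAAAGTGAA begins 243 bases before the start and the kappa B core GGAAATTCC, which answers to GGNNTTTCC on the other strand, 186 bases before it. In Gbp2 the core lies as TTCACTTTC on the opposite strand, 30 bases before the start. Irgm2 holds it at 2 places, GAAAAAGAA at 154 and GAAACTGAA at 102 bases before the start. Rsad2 and Irf7 both hold TTCATTTTC, the core on the opposite strand, at 146 and 68 bases before their starts. None of these matches overlapped another of the 7 motifs searched.

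**Figure D2:**
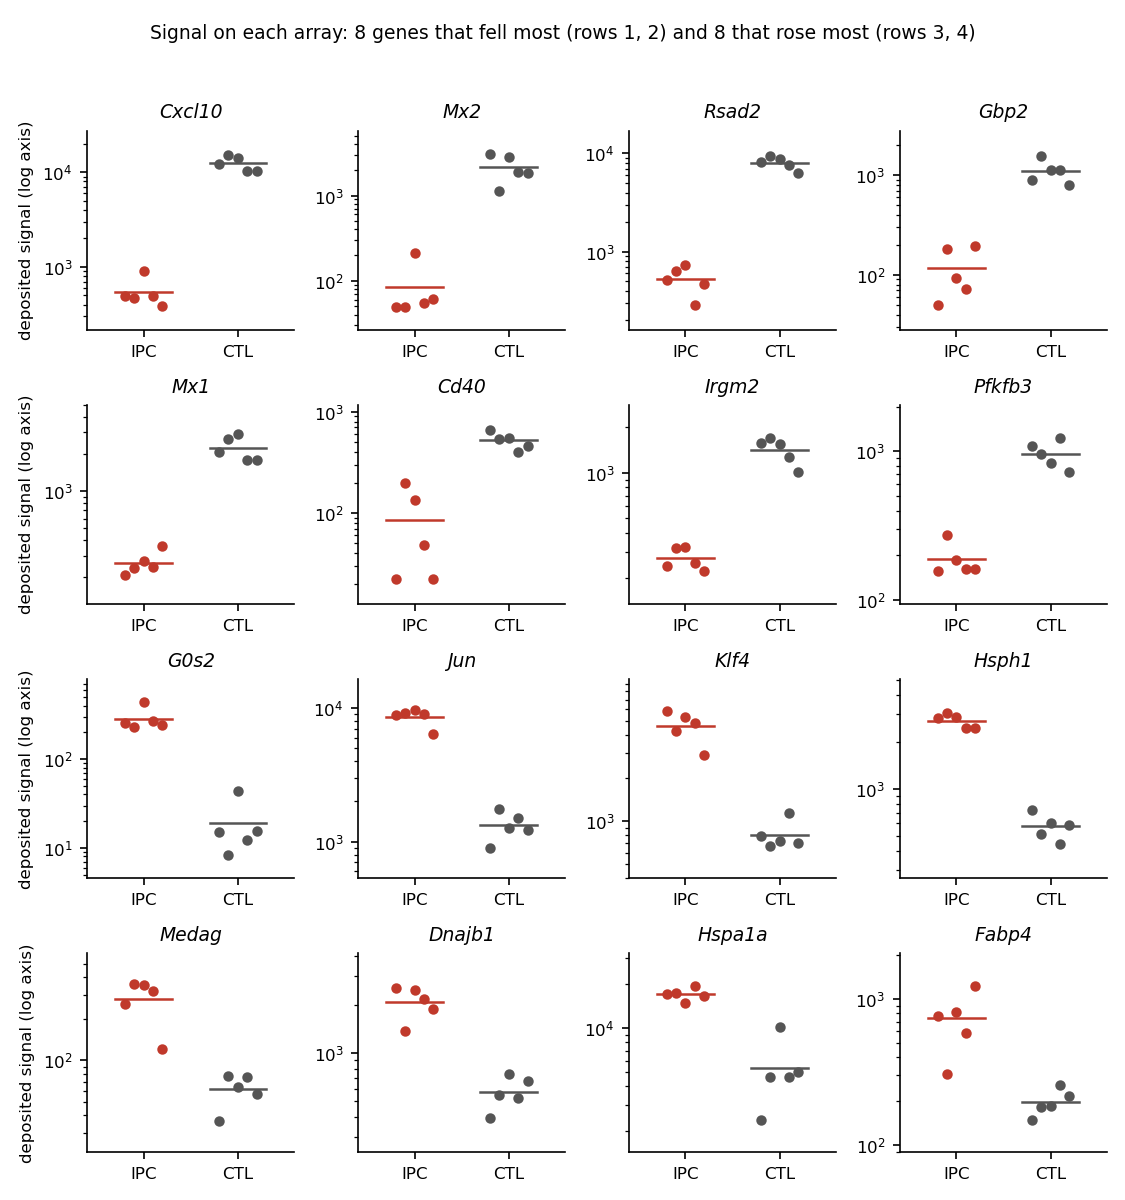
Deposited signal (y axis, log scale, a different range in each panel) on each of the 5 IPC arrays (red, left) and 5 CTL arrays (grey, right), with the mean as a line. The 8 genes with the largest falls fill the upper panels and the 8 with the largest rises the lower ones, and in all 16 the groups do not overlap.

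Chemokines and cytokines followed the same direction. Of 33 measured, 17 passed the filter, and 10 fell while 0 rose, with a median change of -1.25 (Cxcl10 is on this list too). The interleukin 1 genes, early inflammatory cytokines, were both lower. Il1a had 219, 229, 274, 256 and 221 on the IPC arrays, against 1009, 1037, 1582, 756 and 1207 on the CTL arrays, a change of -2.03 ± 0.24 (adjusted p = 6.3e-07). Il1b had 256, 230, 293, 249.5 and 231 on the IPC arrays, against 442, 1123, 822, 703 and 888 on the CTL arrays, a change of -1.45 ± 0.23 (adjusted p = 5.6e-05). The IPC arrays of both genes lay close together and below all CTL arrays. Ccl2, the monocyte attractant MCP-1, had 3579, 6435, 4949, 5899 and 4688 on the IPC arrays, against 10617, 13590.2, 11788, 9910 and 11226 on the CTL arrays. The brightest IPC array remained below the dimmest CTL array, and the change was -1.29 ± 0.22 (adjusted p = 0.00013). Cx3cl1, the membrane-bound chemokine fractalkine of endothelium, had 754, 1634, 1316, 1455 and 1181 on the IPC arrays, against 3189.7, 2947, 3931, 4114 and 3758 on the CTL arrays, a change of -1.53 ± 0.32 (adjusted p = 0.0023). The macrophage inflammatory proteins Ccl3 and Ccl4 changed by -1.53 ± 0.26 and -1.48 ± 0.32, Il15, a growth factor of natural killer cells, by -1.97 ± 0.31, and Tnf by -1.25 ± 0.33, all without overlap. Csf1, the macrophage growth factor, changed by -1.24 ± 0.35 (adjusted p = 0.040), but array 2 of IPC had 394, within the CTL range of 315 to 409. Members that were tested and not called held Il6 at 0.08, Cxcl2 at -0.44 and Lif at -0.69.

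Among 16 cytokine, chemokine and Toll-like receptors tested, 3 fell and 0 rose. Cd40, the receptor through which T cells activate other cells, had 22.3, 199, 133, 48.8 and 22.3 on the IPC arrays, against 655, 537, 549.7, 396 and 463 on the CTL arrays, a change of -2.61 ± 0.39 (adjusted p = 2.5e-05). The IPC arrays were widely spread, with none as bright as the dimmest CTL array. The lipopolysaccharide co-receptor Cd14 had 314, 348, 333, 329.8 and 294 on the IPC arrays, against 598, 543, 983, 642 and 784 on the CTL arrays, a change of -1.0 ± 0.17 (adjusted p = 0.00013), and Ifngr1, given above, was the other. The list's median was -0.04, close to that of all genes. Of 10 endothelial adhesion molecules tested, 3 fell and 0 rose (median -0.67). Icam1 had 2623, 8606, 3458, 4754 and 1959.7 on the IPC arrays, against 11698, 11394, 10566, 9909 and 11665 on the CTL arrays. It was lower on every IPC array, though array 2 of IPC approached the CTL level, and changed by -1.68 ± 0.28 (adjusted p = 9.4e-05). Vcam1 had 474, 902, 439.9, 847 and 387 on the IPC arrays, against 1531, 2331, 1708, 2310.1 and 1864 on the CTL arrays, a change of -1.68 ± 0.26 (adjusted p = 3.0e-05), with arrays 2 and 4 of IPC again above the others. Selp, the P-selectin that starts leukocyte rolling, changed by -1.13 ± 0.27 (adjusted p = 0.011), with overlap between array 2 of IPC and array 4 of CTL. Sele, at -1.10, and Pecam1, at -0.45, did not pass.

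In the list of 13 NF-kB and JAK-STAT factors and inhibitors, 3 fell and 0 rose (median -0.36), Jak2 among them. Nfkb1, the precursor of the p50 subunit, had 1032, 1309, 938, 943 and 972 on the IPC arrays, against 1486, 1952, 2173, 2602 and 2105 on the CTL arrays, a change of -0.95 ± 0.15 (adjusted p = 4.1e-05). Nfkbia, the inhibitor that is itself induced by NF-kB, had 1942, 2654, 3217, 2512 and 1616 on the IPC arrays, against 4075, 4666, 4464, 3511 and 4586 on the CTL arrays, a change of -0.91 ± 0.14 (adjusted p = 4.2e-05). Neither gene's IPC and CTL arrays overlapped. The kappa B core was found in 4 of the 10 chemokine and cytokine genes with a promoter in the table (40%). Of the fallen members with a promoter, Cxcl10 held it, and Il1a, Il1b, Cx3cl1, Il15 and Tnf did not. Its share was 11.5% of fallen genes (6 of 52), 7.5% of risen genes (3 of 40) and 6.22% of tested genes. Of 6 macrophage and neutrophil markers tested of 11 measured, 2 fell, Cd14 and Lcn2 (-1.21), while Ptprc, the leukocyte common antigen, spanned 202 to 262 in IPC and 152.5 to 198 in CTL. The macrophage marker Csf1r was near the floor of the arrays, at 7.6 to 18.2 in IPC and 9.5 to 19.2 in CTL. Cd74 and Lgals3, of the same list, were brighter and not called. Cd74 spanned 3668 to 5047 in IPC and 3470 to 5093 in CTL. Lgals3 spanned 310.8 to 467.5 in IPC and 271.5 to 464.3 in CTL. The part of such cells in the falls was not tested.

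Immediate early transcription factors held the largest group of rises. Of 31 tested, 8 rose and 0 fell, with a median change of 0.27. Jun, a subunit of the AP-1 factor, had 8774, 9163, 9686, 8951 and 6391 on the IPC arrays, against 898, 1758, 1265, 1504 and 1211 on the CTL arrays. Array 5 of IPC was the dimmest of its group and still far brighter than any CTL array, and the change was 2.77 ± 0.22 (adjusted p = 1.9e-10). Klf4, a zinc finger factor of endothelium and smooth muscle, had 5818, 4274, 5337, 4809 and 2865 on the IPC arrays, against 783, 667, 729, 1136 and 705 on the CTL arrays, a change of 2.49 ± 0.28 (adjusted p = 2.7e-07). Fos, the partner of Jun, had 18203, 17618, 17739, 17813 and 11955 on the IPC arrays, against 5581, 4897, 6640, 4777 and 7652 on the CTL arrays. Here too array 5 of IPC was the lowest of the IPC arrays and above all CTL arrays, and the change was 1.49 ± 0.19 (adjusted p = 2.7e-06).

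The early growth response factor Egr1 had 16656, 18163, 19356, 20408 and 16060.4 on the IPC arrays, against 6200, 7578, 7422, 7784 and 9022 on the CTL arrays, a change of 1.31 ± 0.23 (adjusted p = 0.00019). The orphan nuclear receptor Nr4a1 had 6355, 5119.6, 5788, 6253 and 6766 on the IPC arrays, against 2434, 2600.5, 1798, 2494 and 2840.3 on the CTL arrays, a change of 1.30 ± 0.19 (adjusted p = 1.2e-05). Both were more than 2 times brighter in IPC, at 2.47-fold and 2.46-fold. Egr2 and Id2 changed by 1.02 ± 0.26 and 1.15 ± 0.25, without overlap, and Junb by 0.83 ± 0.24 (adjusted p = 0.045), with the groups overlapping at array 5 of IPC. Dual specificity phosphatases, which switch MAP kinases off, were the 2 called members of the list of 19 MAP kinase genes tested. Dusp1 had 3778, 2843, 3238, 2940.5 and 2767 on the IPC arrays, against 956, 1031, 1194, 1436 and 1095 on the CTL arrays, a change of 1.45 ± 0.17 (adjusted p = 4.4e-07), and Dusp6, which acts on ERK, changed by 1.13 ± 0.33 (adjusted p = 0.049). None of the MAP kinases tested was called.

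Of 22 heat shock proteins and co-chaperones tested, 7 rose and 0 fell, with a median change of 0.24. Hspa1a, the inducible Hsp70, which a probe set may not separate from its near-identical copy Hspa1b, had 17067, 17247, 14828, 19380.2 and 16568 on the IPC arrays, against 2363, 4668, 10208, 4623 and 4992 on the CTL arrays. Array 3 of CTL was brighter than the other 4 CTL arrays yet below every IPC array, and the change was 1.82 ± 0.32 (adjusted p = 0.00019). Hsph1, the nucleotide exchange factor Hsp110 of Hsp70, had 2833, 3049.8, 2900, 2451 and 2438 on the IPC arrays, against 734, 516, 601, 441 and 586 on the CTL arrays, a change of 2.21 ± 0.18 (adjusted p = 4.1e-10). The co-chaperones that feed clients to Hsp70 were also higher. Dnajb1 had 2538, 1369, 2459, 2185 and 1884 on the IPC arrays, against 396, 551, 741, 525 and 669 on the CTL arrays, a change of 1.82 ± 0.25 (adjusted p = 7.7e-06), and Dnaja1 had 12279, 9819.7, 10189.9, 11736 and 6355 on the IPC arrays, against 3136, 2513, 5655, 3282 and 3692 on the CTL arrays, a change of 1.52 ± 0.23 (adjusted p = 2.8e-05). Serpinh1, the collagen chaperone Hsp47, changed by 1.29 ± 0.20 without overlap. The mitochondrial chaperonin pair Hspd1 and Hspe1 changed less, by 0.53 ± 0.14 and 0.69 ± 0.20. Small heat shock genes were not called, with Hspb1 at 0.45, Cryab at -0.16 and Hspb6 at -0.31, nor was Hsp90ab1 at 0.29.

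Paired units of the heat shock element, GAANNTTC on either strand, were found in 11 of the 17 promoters of this list in the table (64.7%), in 7 of 40 risen genes (17.5%) and in 141 of 2590 tested genes (5.44%). Over all 27457 promoters the share was 8.34%. Of the risen members of the list, Hsph1, Dnajb1, Dnaja1, Serpinh1, Hspd1 and Hspe1 held the units. Hspa1a, whose promoter is in the table, did not. The list was chosen as one of heat shock genes, so the share describes the list as much as the hearts. The promoter of Hsph1 (chr12:10427118-10427417, plus strand) is shown as that of the chaperone gene with the largest rise, with the paired units, 31 bases before the start, in capitals.
Hsph1: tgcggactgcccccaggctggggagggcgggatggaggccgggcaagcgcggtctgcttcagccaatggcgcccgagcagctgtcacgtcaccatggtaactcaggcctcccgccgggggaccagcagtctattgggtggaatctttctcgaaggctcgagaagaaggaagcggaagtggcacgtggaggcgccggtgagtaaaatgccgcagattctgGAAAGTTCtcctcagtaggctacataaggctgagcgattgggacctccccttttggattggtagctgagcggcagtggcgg

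In the endoplasmic reticulum, 4 of 16 chaperone and stress genes tested rose and 0 fell (median 0.17). Hspa5, the main chaperone BiP, had 2694, 2909, 2711, 2448 and 2464 on the IPC arrays, against 1376, 1799, 1046, 1994 and 1526 on the CTL arrays, a change of 0.81 ± 0.17 (adjusted p = 0.0026). Ddit3, the factor CHOP, had 2556, 1842, 2250.5, 2207 and 1787 on the IPC arrays, against 839, 776, 754, 1460.1 and 1088 on the CTL arrays, a change of 1.15 ± 0.22 (adjusted p = 0.00088). In neither gene did any CTL array reach an IPC array. Dnajb9, a BiP co-chaperone, changed by 1.44 ± 0.35 (adjusted p = 0.011) and Ppp1r15a, the phosphatase subunit GADD34 that restarts translation, by 0.64 ± 0.16 (adjusted p = 0.015). Array 3 of CTL had only 82.4 for Dnajb9, against 363 to 510 on the other CTL arrays. The mean level of the 16 genes was nearly the same on all IPC arrays, 0.34 to 0.37 log2 units above the CTL mean, and ran from -0.34 to 0.17 on the CTL arrays.

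**Figure D3:**
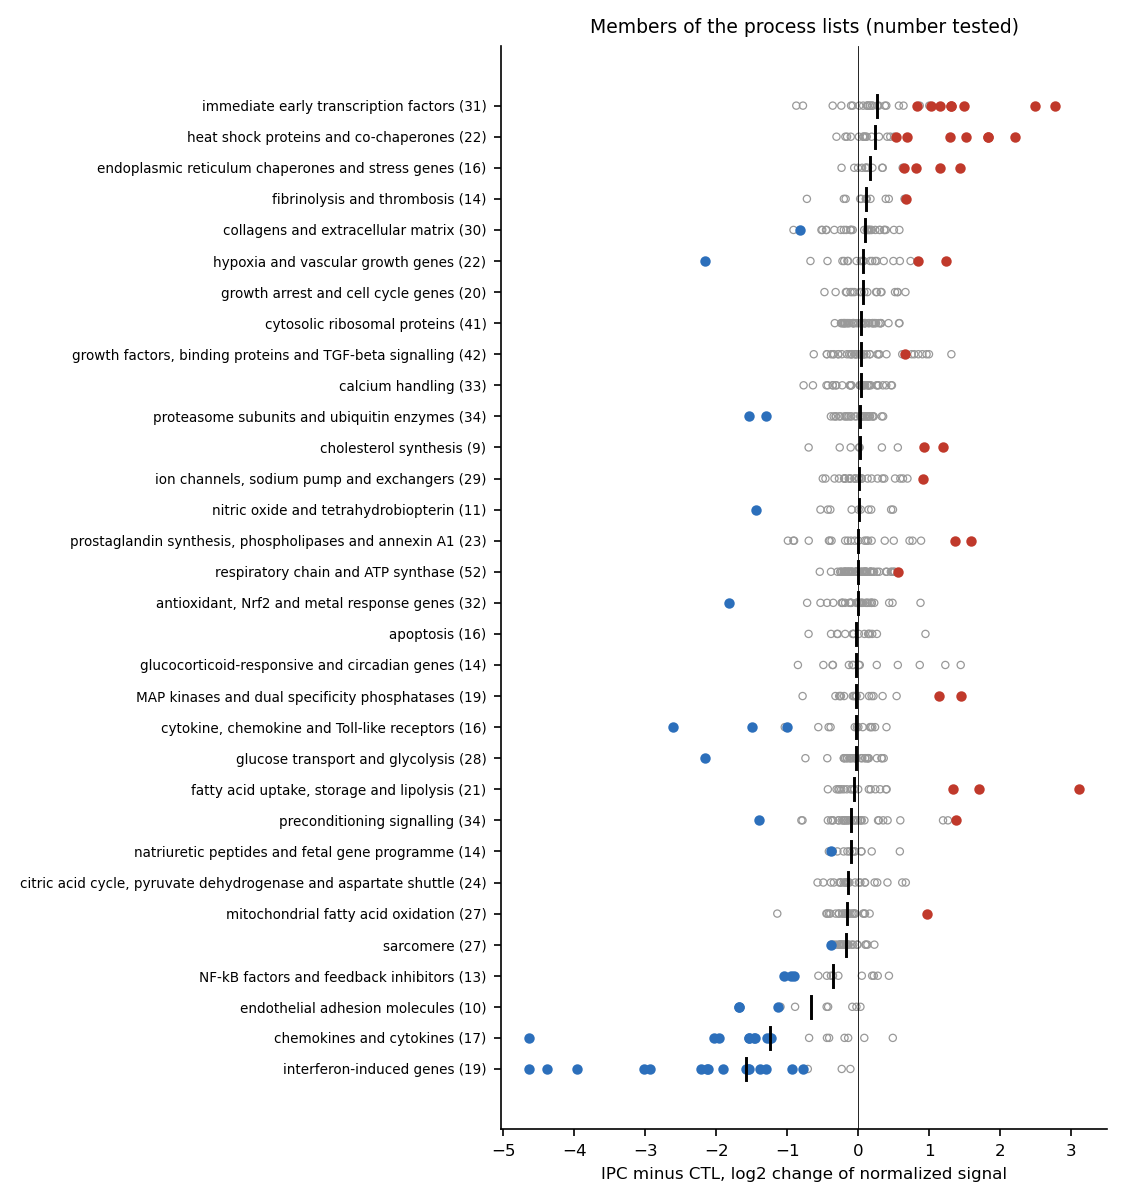
Change in IPC against CTL (x axis, log2 units) of each tested member of the 32 process lists, ordered by list median (black bars). Called rises are red, called falls blue and uncalled genes open, and the lists at the bottom, interferon-induced genes and chemokines and cytokines, hold 16 and 10 falls with 0 rises.

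Some genes of lipid handling rose, while most members of the fatty acid lists lay below 0. G0s2, an inhibitor of the lipase that opens triglyceride stores, had the largest rise of all genes, with 255, 228, 436, 272 and 240.1 on the IPC arrays, against 15.2, 8.3, 43.3, 12.4 and 15.3 on the CTL arrays. The CTL signals were close to the floor of the arrays, so the change of 3.11 ± 0.50 (adjusted p = 5.8e-05) depends on the 16 added before the log. The fatty acid carrier Fabp4, of endothelium and adipocytes, had 769.6, 307, 815, 585 and 1229 on the IPC arrays, against 149, 181, 184, 259.6 and 217 on the CTL arrays, a change of 1.70 ± 0.34 (adjusted p = 0.0015). Its relative Fabp5 had 745, 507, 902, 854 and 1177 on the IPC arrays, against 288, 264, 364, 309 and 365 on the CTL arrays, a change of 1.33 ± 0.20 (adjusted p = 3.3e-05). These were the 3 called members of 21 genes of fatty acid uptake, storage and lipolysis tested, of which 12 were below 0, and the median was -0.06. Fabp4 was also the 1 adipocyte marker called, while Lep, Lipe and Pparg were at -0.00, 0.15 and 0.31. Cpt1a, which admits fatty acids to mitochondria, had 394, 558, 441, 548 and 513 on the IPC arrays, against 257, 245, 213, 255 and 236 on the CTL arrays, a change of 0.96 ± 0.26 (adjusted p = 0.030), in a list of 27 oxidation genes with no other call, 22 members below 0 and a median of -0.15. In cholesterol synthesis 2 of 9 rose, Idi1 by 1.19 ± 0.26 and Msmo1 by 0.92 ± 0.23. Of the 9, 6 were above 0 and 3 below, with a median of 0.02. The cytochrome Cyp4b1 changed by 1.58 ± 0.44 (adjusted p = 0.030), with array 2 of IPC inside the CTL range.

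Pfkfb3, whose product makes the sugar phosphate that speeds glycolysis, had 156, 276, 186, 161 and 162 on the IPC arrays, against 1089, 957, 830, 1230.2 and 727 on the CTL arrays, a change of -2.16 ± 0.29 (adjusted p = 5.6e-06). It was the only call among 28 genes of glucose transport and glycolysis. The quinone reductase Nqo1, a standard target of Nrf2, had 566, 418, 559, 677 and 493 on the IPC arrays, against 4229, 1785, 1166, 1862 and 1876 on the CTL arrays, a change of -1.82 ± 0.27 (adjusted p = 2.3e-05). Array 1 of CTL was above the other CTL arrays, and all 5 were above IPC. Nqo1 was the 1 call among 32 antioxidant and metal response genes, in which Hmox1, the inducible haem oxygenase, had 2322 to 3291 in IPC, against 1832 to 3335 in CTL and changed by 0.13 ± 0.19. Gch1, the first enzyme of tetrahydrobiopterin synthesis, had 304, 499, 403, 364 and 226 on the IPC arrays, against 1365, 1439, 765, 882 and 865 on the CTL arrays, a change of -1.44 ± 0.28 (adjusted p = 0.00078), and was the 1 call among 11 genes of nitric oxide and its cofactor.

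In adrenergic signalling the enzyme and the receptor moved in opposite directions. Pnmt, which turns noradrenaline into adrenaline, had 197, 213, 209, 121 and 247 on the IPC arrays, against 738, 371, 529, 683 and 615 on the CTL arrays, a change of -1.40 ± 0.28 (adjusted p = 0.0015). Adrb1, the beta-1 adrenoceptor, had 231, 265, 198, 253 and 232 on the IPC arrays, against 36.3, 151, 41.7, 126 and 99.2 on the CTL arrays, a change of 1.38 ± 0.35 (adjusted p = 0.016). Both genes separated the groups completely. They were the 2 called members of 34 genes of preconditioning signalling tested, a list with a median of -0.10. Anxa1, a protein that restrains leukocytes, had 612, 955, 792, 1315 and 658 on the IPC arrays, against 229.7, 324, 341, 363 and 330.1 on the CTL arrays, a change of 1.37 ± 0.19 (adjusted p = 6.0e-06). Vessel genes that rose were Nrp1, a co-receptor of VEGF (0.84 ± 0.20), Egfl7, secreted by endothelium (1.24 ± 0.36), the water channel Aqp1 (0.91 ± 0.26), and Plat, tissue plasminogen activator (0.68 ± 0.18). Vessel genes did not rise as a set. Of 10 endothelial markers tested, 1 rose, Egfl7, and 1 fell, Selp, with 6 above 0 and 4 below. Of 22 hypoxia and vascular growth genes tested, 2 rose and 1 fell, with a median of 0.07. Hbegf, a growth factor of the EGF family, changed by 0.65 ± 0.19 (adjusted p = 0.043). Plat had 952, 1700, 1153, 1422 and 939.8 on the IPC arrays, against 697, 718, 763, 769.9 and 818 on the CTL arrays, with no overlap, whereas Aqp1 and Hbegf overlapped.

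The lists held 77 of the 114 called genes, and 37 were on none. Medag, which promotes the making of adipocytes, was the largest of these rises, with 257, 356, 349.9, 319.6 and 122 on the IPC arrays, against 36.2, 77.5, 64.1, 76.2 and 56.8 on the CTL arrays and a change of 1.85 ± 0.38 (adjusted p = 0.0017). C2cd4b changed by 1.62 ± 0.47, the selenium carrier Selenop by 1.17 ± 0.24, Ccdc117 by 1.09 ± 0.15, the collagen prolyl hydroxylase subunit P4ha1 by 0.89 ± 0.20 and the GTPase Rhob by 0.70 ± 0.14. Among the falls, the E3 ubiquitin ligase Neurl3 had 344, 737, 413, 504 and 518 on the IPC arrays, against 1533, 1431, 1788, 1434 and 1786 on the CTL arrays, a change of -1.62 ± 0.17 (adjusted p = 5.7e-08). The decoy receptor Tnfrsf11b changed by -1.59 ± 0.41, Slfn5 by -1.57 ± 0.29, Polr2a, the largest subunit of RNA polymerase II, by -1.02 ± 0.19, and Eef2, the translation elongation factor, by -0.72 ± 0.21. The call of Eef2 was lost when any 1 of the 10 arrays was left out, and its other 3 probe sets, at -0.70 to -0.23, were not called. Nf1, a brake on Ras, changed by -1.04 ± 0.23 in the probe set used, while its other probe set changed by 0.24 ± 0.35. Actb, often used as a reference gene, was higher on all IPC arrays, with a change of 0.71 ± 0.19 (adjusted p = 0.026).

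Some of the calls were lost with 1 array fewer. Leaving out 1 of the 10 arrays in turn kept 70 of the 114 genes called each time. Of the genes named, Eef2 lost its call without any 1 of 10 arrays, C2cd4b without any 1 of 9, Csf1, Dusp6, Egfl7 and Ndufc2 of 8, Aqp1, Cyp4b1, Hbegf, Hspe1, Junb and Lcn2 of 7, Cpt1a and Plat of 6, and Actb of 5. Egr2 and Lamb2 lost it without 1 of 4 arrays, and Cdc42ep3, Hspd1, Tnf and Tnfrsf11b without 1 of 3. Adrb1 lost it without array 1 or 3 of CTL, Ankrd1 without array 1 of IPC or 3 of CTL, and Nrp1 without array 5 of IPC or 2 of CTL. Dnajb9 (without CTL 3), Msmo1 (CTL 2), Ppp1r15a (CTL 1), Selp (IPC 5) and Tap2 (IPC 1) each depended on 1 array. All of these kept their direction in every fit.

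Most metabolic and contractile lists showed few or no calls. In the citric acid cycle 0 of 24 genes passed, with a median of -0.14, and in the respiratory chain 1 of 52, Ndufc2, which rose by 0.56. Ribosomal proteins had 0 calls among 41 genes, calcium handling 0 among 33, apoptosis 0 among 16, and growth arrest and cell cycle genes 0 among 20. Ankrd1, the stress-responsive cardiac ankyrin repeat protein, had 14148, 17289, 16097, 16793 and 15613 on the IPC arrays, against 16492, 21809, 24226, 17699.7 and 18051 on the CTL arrays, a change of -0.38 ± 0.10 (adjusted p = 0.014). This call was lost with median centring and with the values as deposited. Over the alternatives that kept all arrays, the change of Ankrd1 ran from -0.41 to -0.24. Ankrd1 was the only call among 27 sarcomere genes, of which 23 were below 0, with a median of -0.17. The mean level of these genes lay at -0.20 to -0.12 log2 units from the CTL mean on the IPC arrays. On the CTL arrays it ran from -0.05 to 0.04. The natriuretic peptides were not called. Nppa had 1486, 718, 1323, 846 and 1430.3 on the IPC arrays, against 1221, 1330, 1125, 1725 and 2593 on the CTL arrays, with the CTL arrays widely spread, and changed by -0.42 ± 0.36 (adjusted p = 0.79). Its other 3 probe sets, at -0.98, -0.51 and -0.56, were not called either, and Nppb changed by -0.06 ± 0.16. Ptgs2, the inducible cyclooxygenase, changed by -0.90 ± 0.35 (adjusted p = 0.21).

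Collagens and matrix genes gave 1 call in 30, Lamb2 (-0.82 ± 0.22), and a median of 0.10. Array 5 of IPC stood apart in this list, with a mean level 0.45 log2 units above the CTL mean, where the other IPC arrays ran from -0.26 to -0.06. Col1a1 had 5229, 4417, 4901, 4900.4 and 11914 on the IPC arrays, against 4307, 4305, 1939.5, 5491 and 3847 on the CTL arrays. That array's bacterial spike signal, at 11.5 log2 units, was also the highest of its group. None of the 11 fibroblast markers tested was called, with a median of 0.24. Agrn, the basement membrane proteoglycan agrin, changed by -0.92 ± 0.20 (adjusted p = 0.0030), with array 5 of IPC the 1 that overlapped CTL.

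Whether the preconditioned hearts differed from hearts with ischaemia alone was asked by the direct contrast IPC minus ISCH, in which 9 of 5244 probe sets were called (0.172%), 4 higher (0.0763%) and 5 lower (0.0953%). As 1 probe set per gene, 3 of 3155 genes were called (0.0951%), all lower in IPC. Pnmt averaged 197 ± 46.5 in IPC and 628 ± 347 in ISCH (SD, n = 5 each), a difference of -1.38 ± 0.28 (adjusted p = 0.034). Col5a1, a fibrillar collagen chain, averaged 915 ± 325 in IPC and 1746 ± 329.8 in ISCH, a difference of -0.98 ± 0.20 (adjusted p = 0.034). Notch1, a receptor of cell fate signalling, averaged 694 ± 292 and 1167 ± 101, a difference of -0.85 ± 0.19 (adjusted p = 0.047). The other 6 called probe sets, named after their values were seen, held further ones of Anxa1 (1.65 ± 0.27), Gch1 (1.59 ± 0.35) and Slc16a1 (0.89 ± 0.19), higher in IPC, and of Gpx3 (-0.94 ± 0.19), lower in IPC, beside 2 that are unnamed here. Anxa1's brighter probe set, read for the gene, differed by 0.64 ± 0.19 (adjusted p = 0.18). Against CTL, Col5a1 and Notch1 were not called in IPC, at 0.16 and 0.06. These calls were unstable, since leaving out 1 array gave between 0 and 89 probe sets. Without array 5 of IPC there were 89, and without any other IPC array 0 or 1. The ISCH arrays were less alike than those of IPC, with mean correlations to their group of 0.918 to 0.950, against 0.959 to 0.970. Their spike signals were 11.1 to 12.8 log2 units, against 10.5 to 11.5 in IPC. The brightest 1% of probe sets held 33.6 to 44.3% of their signal, against 28.1 to 34.5%. Their beta-actin ratios, 0.25 to 0.42, lay within the IPC range. When the fit allowed for spike level, 0 calls were left. What part array quality had was not tested. The matrix list had a median difference of -0.37 from ISCH, with 1 of 30 genes called.

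No member of the interferon, chemokine, immediate early or heat shock lists was called against ISCH. The median differences were 0.20, 0.10, 0.14 and 0.08, beside 0.02 over all genes tested. Genes called against CTL whose IPC and ISCH changes lay furthest apart, Pnmt aside, were Plat, at 0.68 in IPC and -0.06 in ISCH (difference 0.74 ± 0.18, adjusted p = 0.082), Cdc42ep3, at 0.69 and -0.03 (adjusted p = 0.083), and Gch1, at -1.44 and -2.46 (adjusted p = 0.13). These probe sets did not pass, although a dimmer one of Gch1 did, as given above. ISCH and IPC are both set against the same CTL arrays, so their changes are given side by side only.

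Against preconditioning with an anaesthetic, IPC minus APC, limma called 0 of 5244 probe sets, with 137 at an unadjusted p under 0.05 and a lowest adjusted p of 0.0696. That lowest value was for Pnmt, which averaged 197 ± 46.5 in IPC and 613 ± 196 in APC, a difference of -1.47 ± 0.28. Anxa1 had the next smallest p among genes, with 866 ± 284 in IPC and 511 ± 61.5 in APC, a difference of 0.66 ± 0.19 (adjusted p = 0.9996). With 5 arrays a group a p that misses the threshold does not show that the protocols act alike.

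The contrast with the trigger alone, IPC minus IPC_TRI, gave 1228 calls among 5244 probe sets (23.4%), 732 higher in IPC (14.0%) and 496 lower (9.46%). The split depends on the scaling. With each array centred on its median in place of quantile normalization, 1012 were higher and 236 lower, and with the values as deposited 598 and 574. The IPC_TRI arrays were also less alike, with a mean correlation to their group of 0.872 to 0.913, against 0.959 to 0.970 for IPC, and their beta-actin 3′ to 5′ log2 ratios ran from -0.98 to 0.05, against -0.12 to 0.49 in IPC. With that ratio as a covariate, 255 probe sets were called. What part RNA quality had in these calls was not tested further.

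Within this contrast Klf4 had the largest difference, at 4621 ± 1139 in IPC and 437 ± 186 in IPC_TRI, which is 3.51 ± 0.28 (adjusted p = 2.3e-10). Jun differed by 3.12 ± 0.22, Rasl11b, a Ras-like protein, by 3.08 ± 0.30, Fabp4 by 2.54 ± 0.34 and G0s2 by 2.33 ± 0.50. Cpt1a was higher than CTL in IPC and lower than CTL in IPC_TRI, at 0.96 and -1.21, and so were Ddit3, at 1.15 and -0.99, and Plat, at 0.68 and -0.97. For each of these the difference was called (adjusted p = 5.4e-07, 3.2e-08 and 1.1e-07). Of the 31 immediate early genes 13 were higher in IPC than in IPC_TRI and 2 lower, and of the 22 heat shock genes 10 were higher and 1 lower. Over all 3155 genes tested, 386 were higher in IPC (12.2%) and 335 lower (10.6%).

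Inflammatory genes were lower in IPC than in IPC_TRI. Of the 19 interferon-induced genes 12 were lower and 0 higher, with a median difference of -1.07. Of the 17 chemokines and cytokines 10 were lower and 0 higher. Among all genes tested, 10.6% were lower and 12.2% higher. Cxcl10 averaged 549 ± 199.9 in IPC and 4878 ± 3058 in IPC_TRI, a difference of -3.01 ± 0.31 (adjusted p = 2.1e-08). Rsad2 differed by -2.60 ± 0.30, Cx3cl1 by -2.38 ± 0.32 and Mx2 by -2.14 ± 0.51. Pnck, a calmodulin-dependent kinase that was not called against CTL, differed by -1.90 ± 0.66 (adjusted p = 0.035). Some of the falls against CTL gave no call here. Gch1, Il15 and Nqo1 were at -1.44, -1.97 and -1.82 in IPC and at -1.09, -1.38 and -1.32 in IPC_TRI, with differences that were not called.

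**Figure D4:**
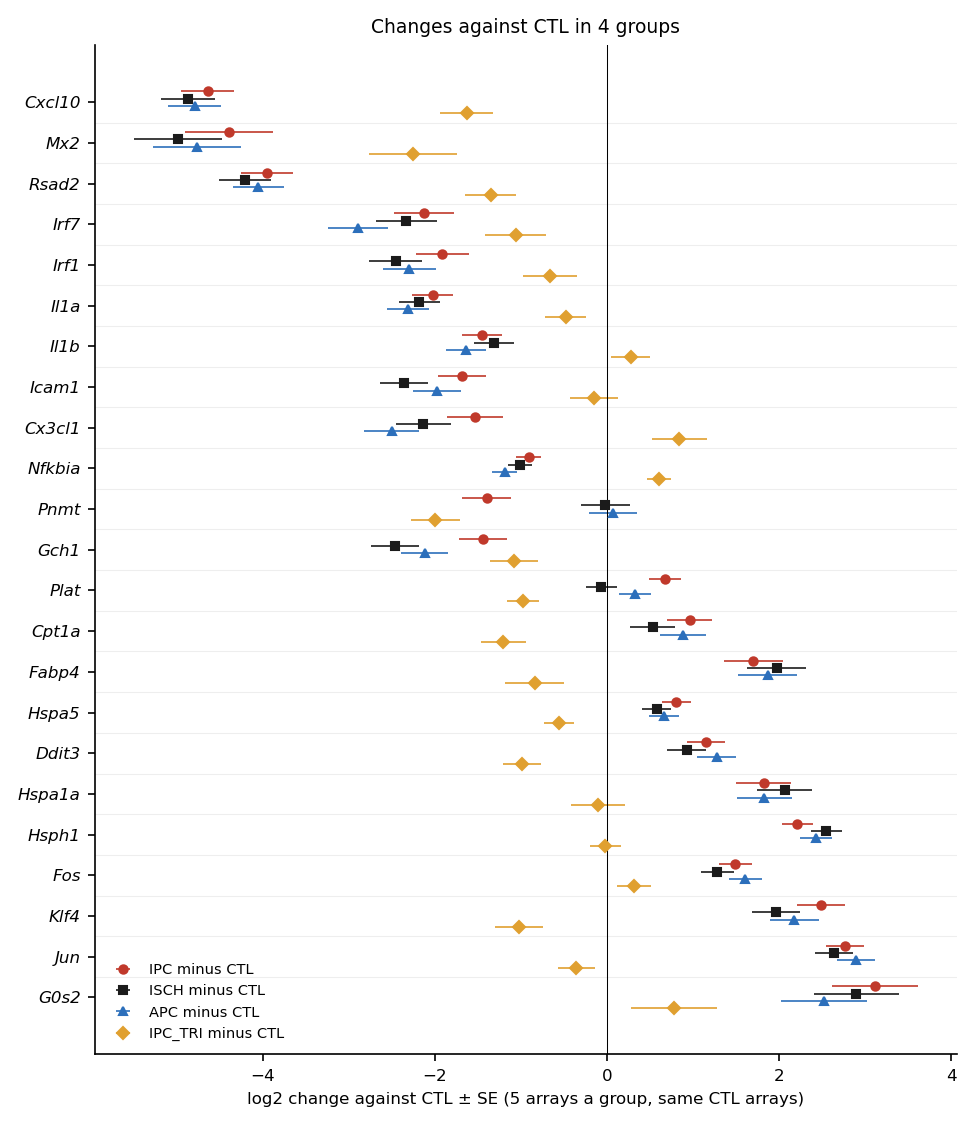
Change against CTL (x axis, log2 units, bars are SE) of 23 called genes in IPC (red circles), ISCH (black squares), APC (blue triangles) and IPC_TRI (yellow diamonds), all set against the same 5 CTL arrays. Pnmt is near 0 in ISCH and APC and at -1.40 and -1.99 in IPC and IPC_TRI, and the heat shock and immediate early genes are near or below 0 in IPC_TRI.

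Averaged over their members, the 19 interferon-induced genes differed from the CTL mean by -2.20 to -1.76 log2 units on the IPC arrays, -2.37 to -1.94 on ISCH, -2.34 to -1.91 on APC and -1.29 to -0.26 on IPC_TRI. No IPC_TRI array was as low as any IPC array. The CTL arrays themselves ran from -0.24 to 0.21. Immediate early genes lay 0.28 to 0.64 above the CTL mean on IPC arrays and at -0.58 to 0.23 on IPC_TRI arrays, so these also did not overlap.

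**Figure D5:**
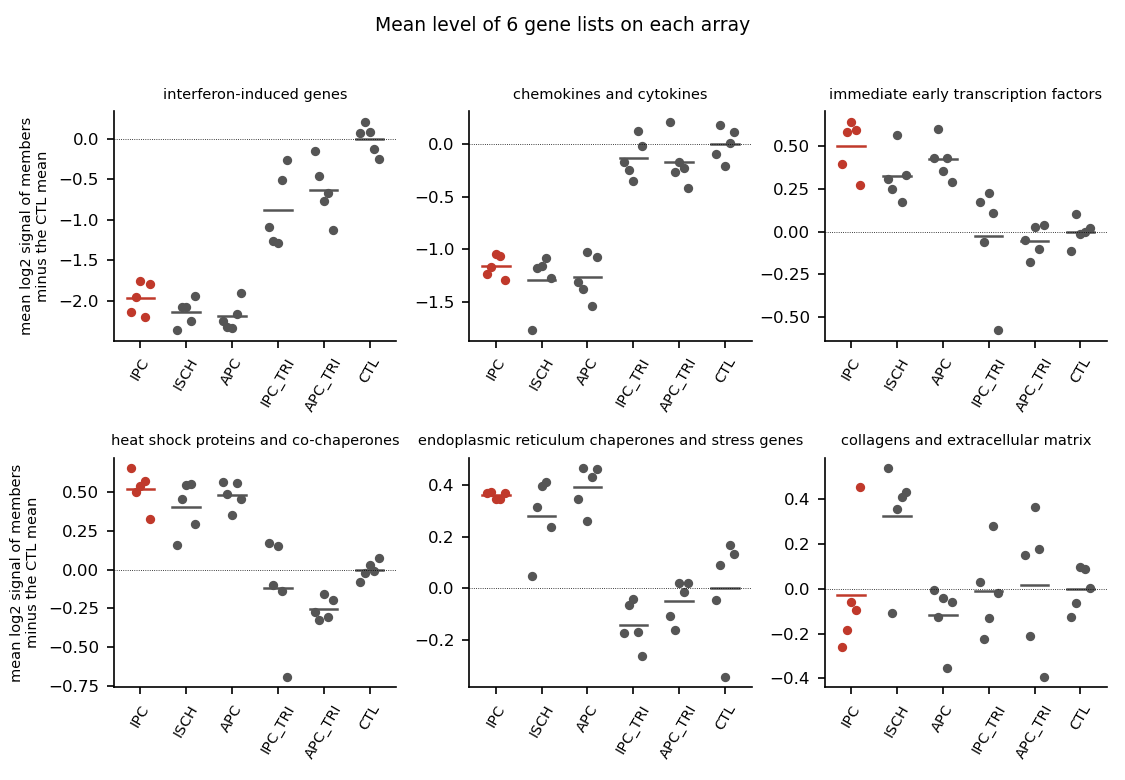
Mean log2 normalized signal of the tested members of 6 lists (y axis, less the mean of the CTL arrays) on each array of the 6 groups, with IPC in red and the group mean as a line. IPC, ISCH and APC arrays lie together in the interferon, chemokine and heat shock panels, and 1 IPC array, number 5, stands above the other 4 in the matrix panel.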

How the data were processed

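The study hybridized rat left ventricle RNA to 30 Affymetrix arrays, 5 for each of 6 protocols. Its authors deposited a linear intensity for every probe set on every array. Scaling had preceded deposition, with a 2% trimmed mean of 501 on every array, but no quantile normalization, as the medians of 114.6 to 189.2 show. The sources used here do not name the software. Among 8799 probe sets, 59 array controls were used only for quality measures. Symbols came from the platform annotation and were looked up in a rat gene reference, which changed 0 of them. Of the probe sets, 7006 had 1 symbol, 308 several and 1426 are unnamed here, and 6985 of the gene identifiers were found in the reference.

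Signals were taken as log2(signal + 16) and quantile normalized over 30 arrays, and a filter on the mean dropped the dimmest 40% of probe sets and kept 5244. One mean per group was fitted to all 30 arrays with limma 3.58.1 in R 4.3.3 (eBayes with trend), with Benjamini-Hochberg adjustment and calls at 0.05. A gene was read from its probe set with the highest mean among those with 1 symbol. The fit was tested on simulated data. Tables and figures used Python 3.11.15 with pandas 2.3.3, numpy 2.4.6, scipy 1.17.1 and matplotlib 3.10.9. Promoters came from RefSeq's GRCr8 annotation, with 7 motifs searched on both strands: the ISRE core (GAAANNGAA), a kappa B core (GGNNTTTCC), paired heat shock element units (GAANNTTC), the AP-1 site, the cAMP response element, the E-box and the CArG box.

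Genes were named by rule: the 15 largest called changes in each direction, up to 4 called members of a list by p (or 2 members where none was called), a fixed set (Myh6, Ptgs2, Nppa, Fos, Nppb, Hmox1 and Hspa1a), and for each other contrast the 5 largest called differences per direction, or the 2 with the smallest p. Other called genes are named with their change, and arrays' values of some and further uncalled list members were added after their values were seen. The comparison, its 32 process lists and 12 cell type lists were chosen with earlier results of these data known. Alternatives were other pseudocounts, filters and scalings, a replicate block, array weights, the spike signal or beta-actin ratio as a covariate, fits of only the 2 groups, and each array left out. Replicate letters did not pair IPC with CTL arrays: 0 of 5 same-letter correlations of deviations were above 0.1. The number of arrays limits the precision, and the labels give no batch or scan date. All values of 10 arrays, with 0 identical pairs of arrays, were kept.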

Additional observations from a re-analysis of the deposited data

Results flagged for a closer look

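In 270 groups of 5 values (normalized log2 signals of the genes named, and 6 quality measures), 30 (11.1%) had 1 array further from the other 4 than Dixon's test at 95% allows, where chance flags about 1 in 20 groups. Array 5 of IPC stood apart for 9 genes. It was below the other IPC arrays for Jun (12.6), Fos (13.5), Dnaja1 (12.6), Ccdc117 (9.05), Lamb2 (10.6) and Tnf (6.53), and above them for Col1a1 (13.5), Col5a1 (10.5) and Agrn (10.2). The share of its signal in the brightest 1% of probe sets was 34.5%, the highest of its group. What sets this array apart was not tested.

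Array 3 of IPC was above the others for Mx2 (7.93) and C2cd4b (8.92) and below them for Tap1 (8.05), and its beta-actin 3′ to 5′ log2 ratio was -0.12, against 0.43 to 0.49 on the other IPC arrays. Of the CTL arrays, number 3 was high for G0s2 (5.87) and Eef2 (14.3) and low for Dnajb9 (6.62), Ccl3 (8.24) and the Gapdh 3′ to 5′ log2 ratio (-0.24). Number 2 was high for Ccl2 (13.8), Psmb9 (9.21), Ifitm3 (13.8) and Btg1 (12.2) and low for Ifngr1 (8.88) and Msmo1 (6.81). Number 1 was low for Anxa1 (7.93), Hspd1 (12.02) and Nf1 (9.72), number 4 was high for Klf4 (10.1) and low for Tnfrsf11b (7.34), and number 5 was low for RT1-S3 (10.1).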

How the results depend on the processing

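The 204 calls of IPC against CTL became 398 with array weights. Under the other alternatives the count stayed within 1.5 times, between 156 and 190 with 1 array left out. Of the 114 called genes, 69 were called under every alternative and 0 reversed. The beta-actin ratio as a covariate took the most calls of any alternative that kept all arrays. With it 87 of the 114 genes stayed called and 27 did not. Among the 27 were Adrb1, Cpt1a, Plat, Tnf, Egr2, Hspd1, Hspe1, Cyp4b1, Dusp6, Csf1, Lcn2, Lamb2 and Actb. Without a filter 19 genes lost their call, and with median centring 13 did. Among those 13 were Actb, Ankrd1, Eef2, Hspd1, Hspe1, Junb, Lamb2 and Ndufc2. List counts stayed within 1.5 times, except that 5 receptors fell with array weights, against 3. For IPC minus ISCH the 9 calls became 2 without a filter, 22 with values as deposited, 2 with the replicate block, 267 with array weights, 0 with the spike signal as a covariate and 0 with only those groups in the fit. With 1 array left out they ran from 0 to 89: 1, 0, 1, 0 and 89 without IPC 1 to 5, and 2, 1, 3 and 2 without ISCH 1, 3, 4 and 5. The 0 calls of IPC minus APC became 1 with the lowest 60% left out, 1 with values as deposited, 1 with array weights, and 0 to 1 with 1 array left out (1 without APC 3). The 1228 calls of IPC minus IPC_TRI became 794 with array weights, 255 with the beta-actin ratio as a covariate and 526 with only those groups, and ran from 944 to 1362 with 1 array left out. The causes were not tested. With the replicate block IPC against CTL gave 192 calls, and the letters did not pair the arrays (correlations of -0.006 to 0.076, 1 of 5 arrays closest to its own letter).

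Among the genes named here and the quality measures, the values that changed sign were uncalled ones near 0. With 1 array left out the change ran from -0.0695 to 0.651 for Pnck, -0.0254 to 0.251 for Col5a1, -0.151 to 0.251 for Notch1 and -0.170 to 0.0609 for Nppb (0.0299 without IPC 5). With array weights Col5a1 became -0.00516 and Notch1 -0.00151, and with median centring Nppb became 0.0290. Among quality measures, IPC minus CTL ran from -0.0405 (without CTL 1) to 0.393 for the spike signal, from -0.00306 (without CTL 3) to 0.0607 for the Gapdh ratio, and from -0.934 to 1.35 percentage points for the share of signal in the brightest 1% of probe sets (-0.934, -0.394, -0.547 and -0.298 without IPC 5 or CTL 1, 4 or 5).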

Other observations

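Some lists had no call, and their members with the smallest p are given as values. Among glucocorticoid-responsive genes Errfi1, a feedback inhibitor of the EGF receptor, changed by 1.23 ± 0.45 and Klf9, a Kruppel-like factor, by 0.86 ± 0.30 (adjusted p = 0.17 and 0.12). In apoptosis Casp2 changed by 0.95 ± 0.30 and Casp1, which processes interleukin 1 beta, by -0.70 ± 0.24 (adjusted p = 0.088 and 0.12). The growth arrest genes Gadd45a and Btg1 changed by -0.48 ± 0.19 and -0.32 ± 0.13. In the citric acid cycle Idh2 and Suclg1 changed by -0.39 ± 0.16 and -0.35 ± 0.13. In calcium handling the calcium store protein Casq2 changed by -0.43 ± 0.15 and the protease Capn2 by 0.46 ± 0.16. The ribosomal genes Rpl39 and Rpl4 changed by 0.58 ± 0.20 and 0.57 ± 0.22. Pmp22, a myelin protein that other cells also express, came closest to a call, with 671, 529.7, 734, 604 and 1023 on the IPC arrays, against 295, 330.5, 441, 398 and 390.5 on the CTL arrays, a change of 0.91 ± 0.27 (adjusted p = 0.055) and no overlap between the groups. The ryanodine receptor Ryr2, at -0.64 ± 0.34, had the smallest p of the ventricular markers after Myh6.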
